A study of Homo sapiens with 4 samples.

Results

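The genes described here are the components of the Wnt and Hedgehog signalling pathways, 59 genes out of the 25343 in the deposited table. They were taken by name from a list that spans both pathways from ligand to transcription factor: 49 Wnt genes and 10 Hedgehog genes, all of which had a row in the table. The list was made with earlier results of these data known, although the rule itself uses only gene names and the filter on low values. Of the 59 genes, 44 had at least 1 CPM (reads per gene scaled to a common library total) in at least 2 of the 4 libraries and were tested, 37 in the Wnt pathway and 7 in the Hedgehog pathway. Each of the 44 reached 1 CPM in both groups.

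Wnt proteins are secreted, lipid-modified ligands that bind Frizzled receptors. With the co-receptors LRP5 or LRP6 they halt the breakdown of beta-catenin, which then acts with TCF/LEF factors on target genes, while with ROR or RYK receptors they signal without beta-catenin. Hedgehog ligands bind Patched with the help of GAS1, CDON and BOC, which frees Smoothened to turn on the GLI transcription factors. Both pathways direct the growth and renewal of mammary epithelium and have been studied widely in breast cancer stem cells, the subject named in the series title.

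RNA was sequenced from SUM149PT, an established cell line from an inflammatory breast cancer. The control group (2 libraries) carried a lentiviral control vector, titled vector control and also labelled Shctrl. Whether this control construct held a hairpin is not clear from these names. The EMP2 knockdown group (2 libraries) carried a lentiviral short hairpin RNA construct, labelled Sh911 in both libraries. Both groups were thus stably infected cells and differed in the construct. All were grown in Ham's F12K medium with serum, antibiotics, insulin and hydrocortisone. The labels do not say whether the libraries of a group came from separate cultures, nor whether a group was a pool or 1 clone, so that p-values speak of the spread among these libraries, which may be technical. Effects of this 1 hairpin other than on its target cannot be told apart from those of EMP2 loss. EMP2, an epithelial membrane protein of the PMP22 family, stood at 126.1 and 124.6 CPM in control cells and 23.0 and 22.6 CPM in knockdown cells (log2 change -2.43 with SE 0.05).

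The libraries held 13360907 to 14647053 reads, and 3 reads, the limit that a count of 0 allows for counting error, were worth 0.208 to 0.227 CPM. The 5 epithelial markers (EPCAM, CDH1, KRT8, KRT18, KRT19) summed to 3780 to 3790 CPM in control cells and 3920 to 3940 CPM in knockdown cells. Within this sum CDH1, KRT8 and KRT18 were called higher (log2 changes 0.39, 0.23 and 0.19). KRT19 was called lower (log2 change -0.17), and EPCAM was not called (log2 change 0.06). The 5 basal markers summed to 1600 to 1640 CPM and 1660 to 1670 CPM, with KRT17 called higher (log2 change 0.31), EGFR lower (log2 change -0.63) and KRT5 not called (log2 change 0.05). Also in this list, TP63 stood at 9.89 and 8.41 CPM in the controls against 1.29 and 1.35 CPM in the knockdowns, and KRT14 at 17.6 and 20.2 CPM against 9.76 and 7.79 CPM. Of the receptors ESR1, PGR and ERBB2, ESR1 was at 1.94 and 1.36 CPM, then at 5.17 and 5.47 CPM in the knockdowns, ERBB2 was not called (log2 change 0.03), and PGR had at most 1 read; the sum was 80.9 to 81.8 CPM and 86.3 to 87.3 CPM. Of 7 fibroblast markers, COL1A2 was at 0 and COL3A1 and LUM at or under 3 reads in every library, and the list summed to 130 to 131 CPM and 121 to 124 CPM. Within it DCN was lower in the knockdown (75.4 and 70.1 CPM, then 42.7 and 40.8 CPM), FAP was higher (16.3 and 15.5 CPM, then 33.6 and 36.0 CPM), and COL1A1 stood at 38.6 to 46.5 CPM without a call. The 5 leukocyte markers summed to 7.12 to 8.18 CPM and 6.44 to 8.39 CPM, with CD3E at 0 in every library. The 4 endothelial markers summed to 2.5 to 2.91 CPM and 2.32 to 2.44 CPM, and the 3 adipocyte markers to 1.74 to 1.87 CPM and 1.57 to 1.87 CPM. As in any bulk sample, fewer cells of a type and less RNA per cell cannot be told apart in these levels. The part of these marker differences in the pathway results was not tested.

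In the Wnt pathway the changes were small and ran in both directions. WNT5A, FZD2, ROR1, DKK1, DVL2 and CTNNB1 were higher in the knockdown, and WNT6, WNT11, FZD1, LRP5, ROR2, RYK, SFRP1 and DVL1 were lower (limma on log2(CPM + 0.5), Benjamini-Hochberg adjusted p under 0.05 over all 13661 genes tested). These 14 calls were 37.8% of the 37 tested Wnt genes, against 33.4% called among all genes tested, so the share was near that of the background. The 6 higher and 8 lower calls stood beside 16.6% of all genes called higher and 16.8% called lower. Called changes ranged from 0.14 to 0.50 in absolute log2 value, and 0 of the 14 passed 1.5-fold, where 5.83% of all tested genes were both called and past 1.5-fold. The median log2 change was -0.06 over the 37 genes and 0.00 over all tested genes, and the median absolute change was 0.16 against 0.14.

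In the Hedgehog pathway all calls were lower. GAS1, CDON and GLI1 fell, 3 of the 7 tested genes or 42.9%, near the 33.4% of all genes called in either direction; 16.8% of all genes were called lower. None was called higher by limma, which gave 0 higher at an unadjusted p under 0.05 as well, and edgeR and DESeq2 also gave 0. GAS1 and GLI1 fell past 1.5-fold in mean CPM. The other 4 genes lay between -0.02 and 0.47 in log2 change, and the median over the 7 was -0.02.

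**Figure D1:**
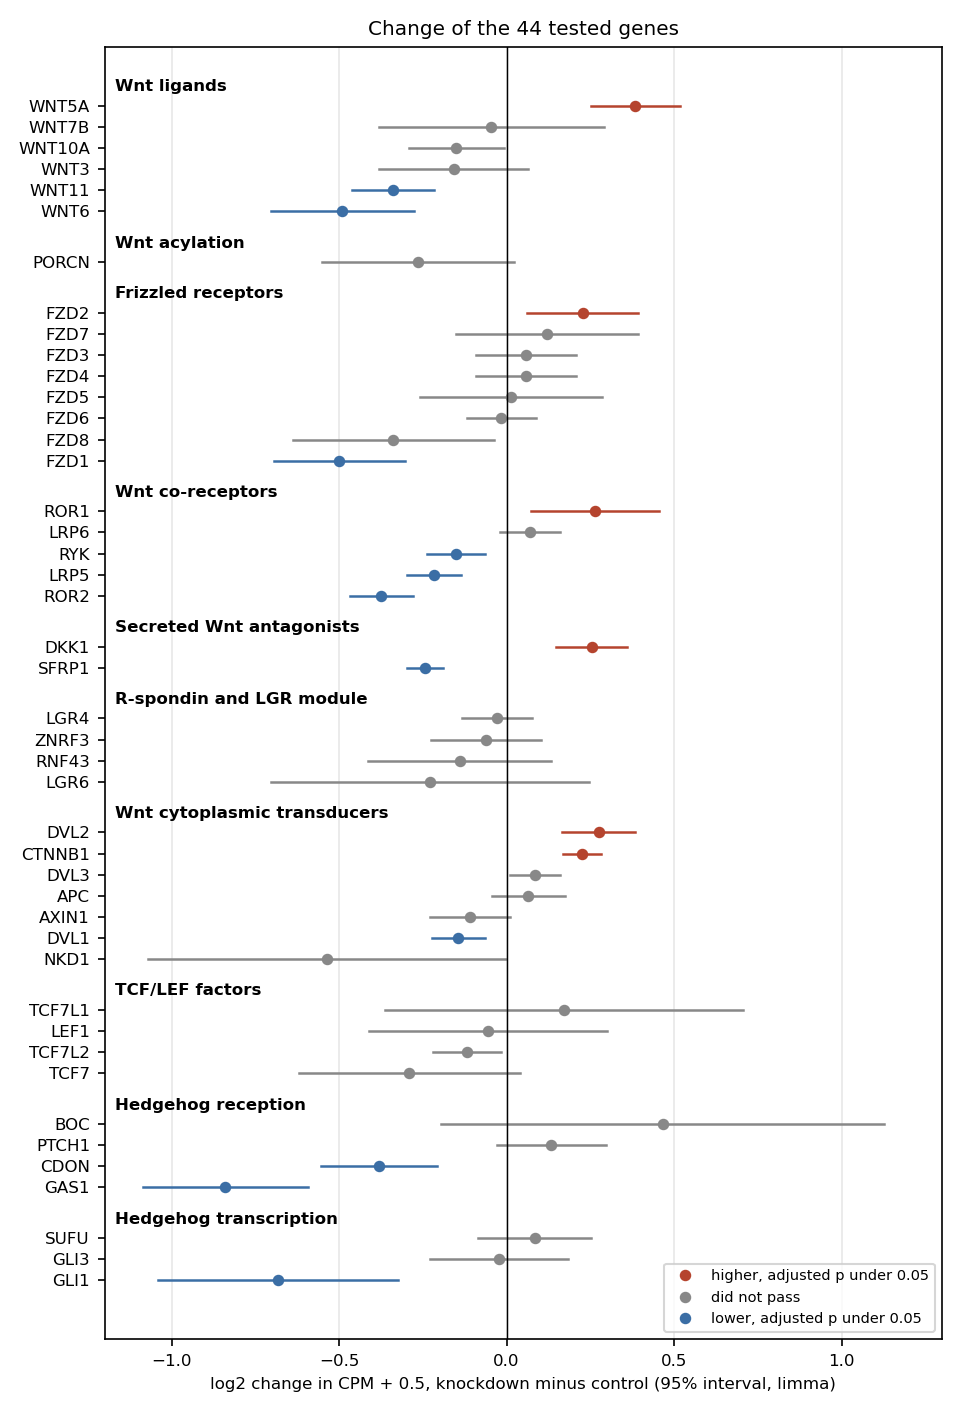
Log2 change in CPM + 0.5, knockdown minus control, of the 44 tested genes by role, with points for the limma estimate and bars for its 95% confidence interval (2 libraries in each group). Called Wnt genes lie on both sides of 0, from -0.50 for FZD1 to 0.38 for WNT5A, and the called Hedgehog genes GAS1, GLI1 and CDON all lie below 0.

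Of the 11 Wnt ligands, 6 were tested, and 3 of these were called (50.0%, beside the 33.4% of all genes tested). WNT5A, a ligand that signals largely without beta-catenin, was at 40.7 and 43.9 CPM in control cells and 52.4 and 58.4 CPM in knockdown cells. Both knockdown libraries lay above both controls, and the mean rose from 42.3 ± 2.30 CPM to a mean of 55.4 ± 4.28 CPM (SD, n = 2; a log2 change of 0.38 with SE 0.06, 95% interval 0.25 to 0.52, limma adjusted p = 0.000151). This call ended without the abundance trend (limma adjusted p = 0.0593). WNT5A lies on the minus strand at chr3:55465715-55490539 (GRCh38). WNT11, also best known for beta-catenin-independent signalling, was at 47.0 and 48.5 CPM in control cells and 37.0 and 38.3 CPM in knockdown cells, with no overlap (log2 change -0.34 with SE 0.06, limma adjusted p = 0.000215). WNT6, a beta-catenin-type ligand of epithelia, was at 17.1 and 15.8 CPM in control cells and 11.8 and 11.3 CPM in knockdown cells (log2 change -0.49 with SE 0.10, limma adjusted p = 0.00122). Each WNT6 value of the knockdown lay below each control value. Thus 1 beta-catenin-independent ligand was higher and the other lower.

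The other 3 tested ligands did not pass. WNT10A, whose gene (chr2:218880363-218899581) follows WNT6 (chr2:218859821-218874233) on the plus strand, was at 32.0 and 33.5 CPM in control cells and 29.5 and 29.4 CPM in knockdown cells (log2 change -0.15, 95% interval -0.29 to -0.01, limma adjusted p = 0.0965). The difference between the changes of these neighbouring genes was not tested. WNT3 had a log2 change of -0.16 (95% interval -0.38 to 0.06) and WNT7B one of -0.05 (95% interval -0.38 to 0.29), and the WNT7B values of the groups overlapped. PORCN, the membrane acyltransferase that attaches the lipid to Wnt proteins, was at 8.16 and 9.24 CPM in control cells and 6.67 and 7.64 CPM in knockdown cells and did not pass (log2 change -0.27, 95% interval -0.55 to 0.02, limma adjusted p = 0.149).

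WNT3A, WNT4, WNT5B, WNT7A and WNT9A stayed under the filter. WNT9A was the highest of them, with 5 and 2 reads in the controls and 9 in each knockdown, and WNT4 had 2 and 1 reads in control cells and 7 and 4 in knockdown cells. WNT3A had 1 read in a single knockdown library, WNT5B between 1 and 3 reads in every library, and WNT7A none, which allows up to 0.227 CPM.

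To set ligands side by side, CPM was divided by the length of each gene's merged exons in kb. On this scale WNT11 was the most abundant ligand in every library, at 24.3 and 25.2 CPM per kb in control cells and 19.1 and 19.8 CPM per kb in knockdown cells. WNT10A followed at 12.5 and 13.1 CPM per kb in control cells and 11.6 and 11.5 CPM per kb in knockdown cells. The order of the next pair differed between the groups. WNT6 (10 and 9.25 CPM per kb) stood above WNT5A (6.41 and 6.92 CPM per kb) in both controls, and WNT5A (8.25 and 9.20 CPM per kb) stood above WNT6 (6.91 and 6.64 CPM per kb) in both knockdowns. WNT3, at 3.40 to 3.87 CPM per kb, and WNT7B, at 0.979 to 1.25 CPM per kb, were lowest of those tested. The summed level of the 11 ligands was 58.4 and 59.6 CPM per kb in control cells and 50.9 and 51.9 CPM per kb in knockdown cells. Within that sum WNT5A took 11.0% and 11.6% in control cells and 16.2% and 17.7% in knockdown cells, WNT11 took 41.6% and 42.3% against 37.5% and 38.1%, and WNT10A took between 21.4% and 22.8% in every library. These shares were not tested, and they rest on annotated exon lengths rather than on the transcripts the cells make.

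**Figure D2:**
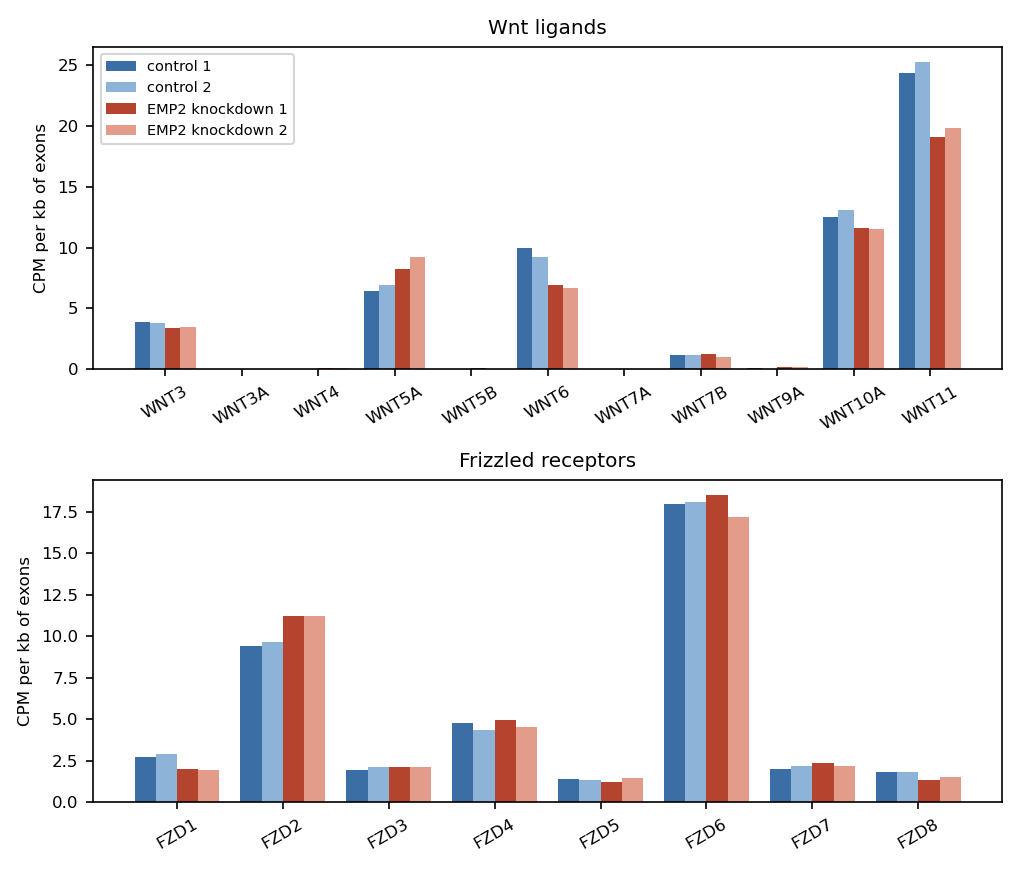
CPM per kb of merged exons (linear axis from 0) of the 11 Wnt ligands and the 8 Frizzled receptors, with a bar for each library. WNT6 bars exceed WNT5A bars in control cells and lie under them in knockdown cells, and FZD6 is the tallest Frizzled bar in all 4 libraries.

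All 8 Frizzled genes, the main Wnt receptors, were tested, and 2 were called (25.0%, beside the 33.4% of all genes tested), in opposite directions. FZD1 was at 18.9 and 20.4 CPM in control cells and 14.0 and 13.5 CPM in knockdown cells, so that the groups stood apart (log2 change -0.50 with SE 0.09, 95% interval -0.70 to -0.30, limma adjusted p = 0.000493). FZD2 was at 19.92 and 20.45 CPM in control cells and 23.7 and 23.8 CPM in knockdown cells. Its groups stood apart too, by less (log2 change 0.23 with SE 0.08, limma adjusted p = 0.0345), and the call ended with edgeR (adjusted p = 0.0527) and with DESeq2 (adjusted p = 0.364). It also ended when any 1 of the 4 libraries was left out, with log2 changes of 0.21 to 0.25 and limma adjusted p-values of 0.0758 to 0.138, without the filter on low values (limma adjusted p = 0.0564) and without the abundance trend (limma adjusted p = 0.0515). The FZD8 values were 7.47 and 7.42 CPM in control cells and 5.45 and 6.14 CPM in knockdown cells, without a call (log2 change -0.34, 95% interval -0.64 to -0.04, limma adjusted p = 0.0791). FZD3, FZD4, FZD5, FZD6 and FZD7 had log2 changes between -0.02 and 0.12, and for each of these 5 genes the values of the groups overlapped.

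Per kb of exon, FZD6 was the most abundant Frizzled in every library (17.2 to 18.5 CPM per kb), followed by FZD2 (9.43 and 9.68 CPM per kb in the controls, 11.2 in both knockdowns) and FZD4 (4.37 to 4.98 CPM per kb). The FZD4 level is uncertain, since 17.0% of its exon bases overlap PRSS23 on the opposite strand. FZD1 came next in the controls, at 2.71 and 2.93 CPM per kb. In the knockdowns it stood at 2.01 and 1.94 CPM per kb, below FZD3 (2.14 and 2.11) and FZD7 (2.38 and 2.19) on the same scale. The summed Frizzled level was 42.1 and 42.5 CPM per kb in control cells and 43.8 and 42.2 CPM per kb in knockdown cells, with overlap.

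Among the 5 co-receptors 4 were called, 80.0% beside the 33.4% of all genes tested, a difference that was not tested. ROR2, a receptor tyrosine kinase-like protein that binds WNT5A, was at 96.4 CPM in both controls and 72.0 and 76.6 CPM in knockdown cells (mean 96.4 ± 0.0305 against 74.3 ± 3.20 CPM, SD, n = 2; a log2 change of -0.37 with SE 0.04, limma adjusted p = 5.71e-06). Its relative ROR1 was at 15.5 and 17.1 CPM in control cells and 19.5 and 19.8 CPM in knockdown cells (log2 change 0.26 with SE 0.09, limma adjusted p = 0.0328). For both genes the groups were apart, ROR2 lower and ROR1 higher in the knockdown, and the ROR1 call ended with DESeq2 (adjusted p = 0.335). It ended too without the filter on low values (limma adjusted p = 0.0679) and without the abundance trend (limma adjusted p = 0.0795). Leaving out 1 library ended it without control replicate 1 (log2 change 0.19, limma adjusted p = 0.219), without knockdown replicate 1 (0.27, limma adjusted p = 0.0767) and without knockdown replicate 2 (0.25, limma adjusted p = 0.107). Per kb of exon, ROR2 remained above ROR1 in all libraries: 19.9 CPM per kb in both controls against 2.35 and 2.60 for ROR1, and 14.9 and 15.8 CPM per kb in the knockdowns against 2.96 and 3.0.

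LRP5, which pairs with Frizzled in beta-catenin signalling, was at 133.2 and 139.3 CPM in control cells and 116.2 and 118.1 CPM in knockdown cells (log2 change -0.22 with SE 0.04, limma adjusted p = 0.000309), a call that ended without the abundance trend (limma adjusted p = 0.0660). Its partner in the same role, LRP6, was at 93.0 and 96.4 CPM in control cells and 102.0 and 97.0 CPM in knockdown cells and did not pass (log2 change 0.07, 95% interval -0.02 to 0.16, limma adjusted p = 0.229). The intervals of LRP5 (-0.30 to -0.14) and LRP6 lay apart, although the difference between these genes was not tested. RYK, a receptor with a Wnt-binding domain and an inactive kinase, was at 130.4 and 124.6 CPM in control cells and 118.0 and 111.6 CPM in knockdown cells (log2 change -0.15 with SE 0.04, limma adjusted p = 0.00862). That call ended with DESeq2 (adjusted p = 0.105), without the abundance trend in limma (adjusted p = 0.153), with quantile normalization (adjusted p = 0.0510), without control replicate 1 (log2 change -0.12, limma adjusted p = 0.0820) and without knockdown replicate 2 (-0.11, limma adjusted p = 0.0726).

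**Figure D3:**
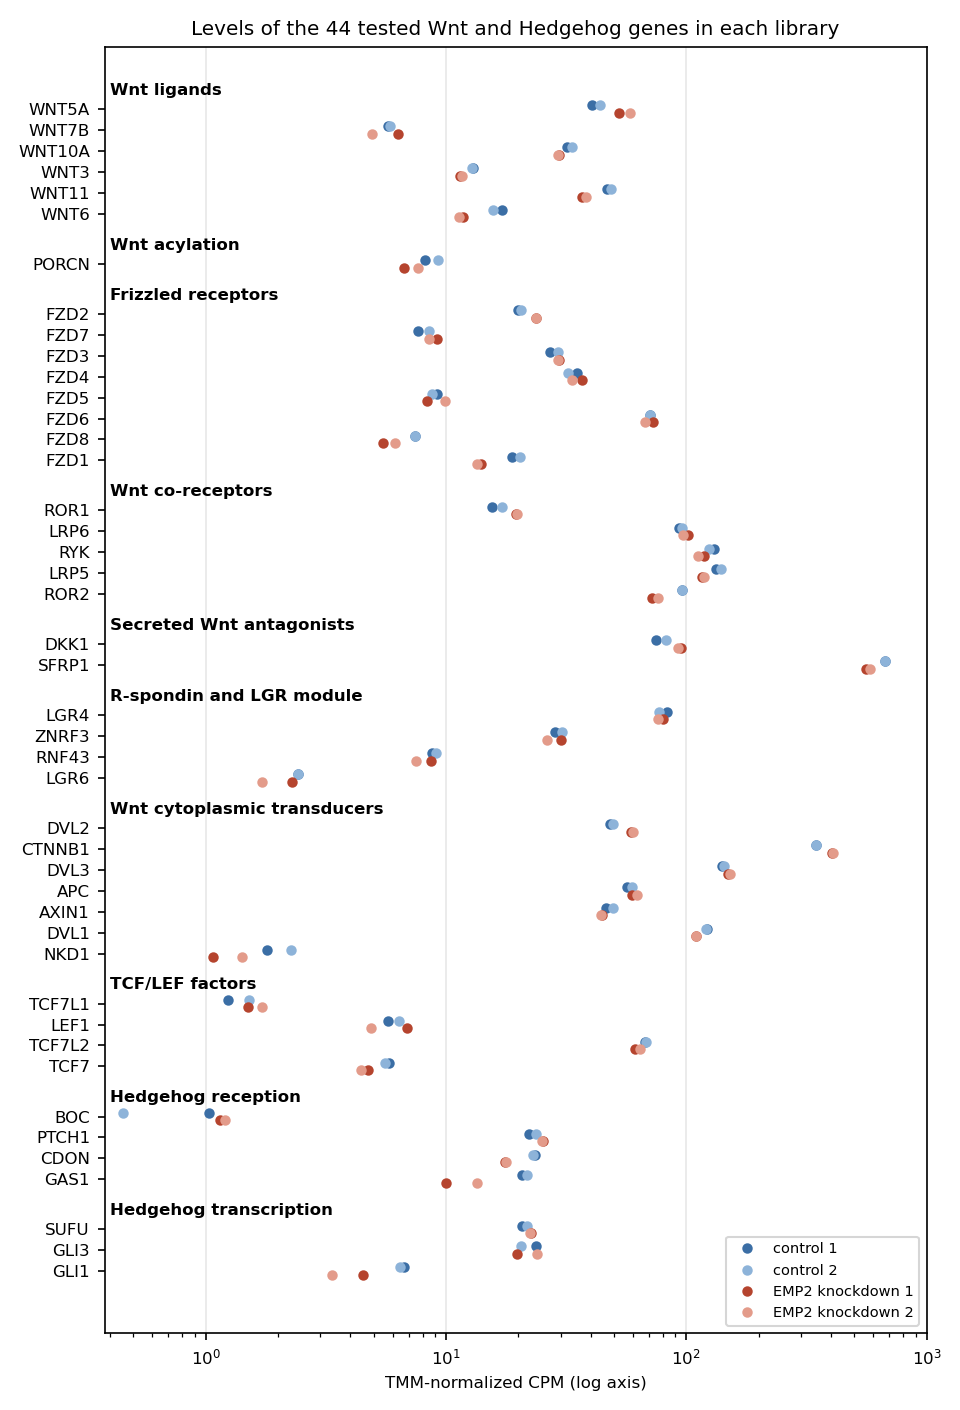
CPM on a log axis of the 44 tested genes in each of the 4 libraries, grouped by role and ordered within a role by log2 change. Blue points are the 2 controls and red points the 2 knockdowns; SFRP1 and CTNNB1 have the highest CPM, and GAS1, CDON and GLI1 have both knockdown points left of both controls.

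The 2 secreted antagonists above the filter were both called, in opposite directions, where 33.4% of all genes tested were called. SFRP1, which binds Wnt proteins outside the cell, was the most abundant of the Wnt genes per kb of exon (141 and 142 CPM per kb in the controls, 117 and 122 in the knockdowns). In CPM it stood at 672.6 and 673.7 in control cells and 557.5 and 579.5 in knockdown cells. The groups were apart, and the mean was lower in the knockdown by 1.18-fold (log2 change -0.24 with SE 0.03, limma adjusted p = 1.23e-06), and the call ended without the abundance trend (limma adjusted p = 0.0506). DKK1, which blocks LRP5 and LRP6 and is itself a known target of beta-catenin, was at 74.6 and 82.7 CPM in control cells and 95.4 and 92.1 CPM in knockdown cells (log2 change 0.25 with SE 0.05, limma adjusted p = 0.000816). The call ended without the abundance trend (limma adjusted p = 0.0956). Both knockdown values were above both controls. SFRP2, FRZB and DKK3 stayed at or under 3 reads in every library.

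The DKK1 promoter is shown because, among the called Wnt genes that had a window, only that of DKK1 held a TCF/LEF motif. Of the 59 genes, 44 had 1 or more windows in the RefSeq promoter table (62 windows, GRCh38.p14). The called genes WNT11, FZD2 and SFRP1 had none and were not searched. Motifs were read on both strands in the 250 bases before each start. CTTTGTT occurred in 4.5% of all 35116 windows and in 3 of the 62, 1 window each for DKK1, TCF7 and TCF7L2. CTTTGAT occurred in 2.26% of all windows and in 0 of the 62. In DKK1 the motif, in capitals, lies 76 bases before the start (chr10:52314031-52314280, plus strand). A match is a description of the letters and shows no binding.
DKK1: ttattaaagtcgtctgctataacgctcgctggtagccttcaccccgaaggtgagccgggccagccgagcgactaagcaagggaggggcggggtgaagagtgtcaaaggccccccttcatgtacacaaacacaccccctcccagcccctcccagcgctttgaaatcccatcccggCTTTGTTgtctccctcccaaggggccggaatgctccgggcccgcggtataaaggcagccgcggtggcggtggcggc

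Neither the R-spondin and LGR group nor the TCF/LEF factors had a call. LGR4, the R-spondin receptor with the highest level here, was at 83.2 and 76.6 CPM in control cells and 80.3 and 76.2 CPM in knockdown cells (log2 change -0.03, 95% interval -0.13 to 0.08). LGR6, RNF43 and ZNRF3 had log2 changes between -0.23 and -0.06; RNF43 and ZNRF3 are the ubiquitin ligases that remove Frizzled from the membrane. In this group of 4 tested genes limma called 0, 0 had an unadjusted p under 0.05, and edgeR and DESeq2 also called 0. Overlaps with other genes, summed gene by gene, came to 77.0% of the exon length of RNF43, so its value is uncertain. A base shared with several genes counts several times in this sum. LGR5, a stem cell marker of the intestine, had 0 reads in both controls and 2 and 1 reads in the knockdowns, and RSPO1 had none, which allows up to 0.227 CPM in a library.

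Of the 4 TCF/LEF factors, TCF7L2 was at 67.4 and 68.2 CPM in control cells and 61.0 and 64.0 CPM in knockdown cells (log2 change -0.12, 95% interval -0.22 to -0.02, limma adjusted p = 0.0727). TCF7 was at 5.81 and 5.60 CPM in control cells and 4.74 and 4.42 CPM in knockdown cells (log2 change -0.29, limma adjusted p = 0.171). The groups were apart for these genes but overlapped for LEF1 (log2 change -0.06) and TCF7L1 (log2 change 0.17). Limma called 0 of the 4, with 1 at an unadjusted p under 0.05, and edgeR and DESeq2 called 0. Per kb of exon TCF7L2 was the most abundant factor, at 14.1 to 15.8 CPM per kb, with TCF7 and LEF1 between 1.07 and 1.64 CPM per kb and TCF7L1 between 0.419 and 0.581 CPM per kb.

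In the cytoplasm, CTNNB1 and DVL2 rose and DVL1 fell. CTNNB1, which encodes beta-catenin (chr3:41194741-41260096, plus strand), was at 347.3 and 347.8 CPM in control cells and 404.9 and 407.8 CPM in knockdown cells. Its mean rose 1.17-fold, from 347.6 ± 0.353 to 406.4 ± 2.09 CPM (SD, n = 2; a log2 change of 0.23 with SE 0.03, limma adjusted p = 4.49e-06), and the groups were far apart for their spread. The activity of beta-catenin is set mainly by breakdown of the protein, which these libraries do not measure. The Dishevelled proteins carry the signal from Frizzled inward. DVL2 was at 48.3 and 49.4 CPM in control cells and 58.6 and 59.8 CPM in knockdown cells (log2 change 0.28 with SE 0.05, limma adjusted p = 0.000493). DVL1 was at 122.4 and 120.6 CPM in control cells and 109.7 and 110.0 CPM in knockdown cells (log2 change -0.14 with SE 0.04, limma adjusted p = 0.00661), a call that ended with DESeq2 (adjusted p = 0.120) and without the abundance trend (limma adjusted p = 0.103). DVL3 was at 140.6 and 143.7 CPM in control cells and 149.6 and 152.1 CPM in knockdown cells and missed the threshold (log2 change 0.09, limma adjusted p = 0.0727). Per kb of exon, DVL1 (33.9 to 37.8) and DVL3 (26.4 to 28.5) stood above DVL2 (16 to 19.8) in every library, all in CPM per kb.

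The scaffolds of the complex that breaks down beta-catenin did not pass. APC had a log2 change of 0.07 (95% interval -0.04 to 0.17) and AXIN1 one of -0.11 (95% interval -0.23 to 0.01). AXIN2 and NKD1 are feedback genes that beta-catenin is known to switch on in many tissues. AXIN2 had 0 and 1 reads in the controls and 1 read in each knockdown. NKD1 was at 1.80 and 2.27 CPM in control cells and 1.08 and 1.42 CPM in knockdown cells (log2 change -0.54, 95% interval -1.07 to -0.0018, limma adjusted p = 0.116), so its groups stood apart at a low level without a call. NKD2 had no reads.

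In Hedgehog reception, GAS1 showed the widest change of any of the 44 tested genes. GAS1, a membrane-anchored protein that helps Patched bind Hedgehog, was at 20.7 and 21.7 CPM in control cells and 10.04 and 13.41 CPM in knockdown cells. The knockdown values differed more among themselves than the control values, and both were well below the controls: the mean fell from 21.2 ± 0.69 to 11.7 ± 2.38 CPM (SD, n = 2), 1.81-fold lower (log2 change -0.84 with SE 0.12, 95% interval -1.09 to -0.59, limma adjusted p = 2.93e-05). GAS1 lies on the minus strand at chr9:86944363-86947189. CDON, a co-receptor of the immunoglobulin family, was at 23.4 and 23.0 CPM in control cells and 17.6 and 17.8 CPM in knockdown cells (log2 change -0.38 with SE 0.08, limma adjusted p = 0.00163), with groups that did not overlap. The CDON call ended with DESeq2 (adjusted p = 0.0641), and 29.8% of its exon bases overlap VSIG10L2 on the opposite strand, whose reads cannot be told apart without the strand setting.

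BOC, the third such helper, was near the filter. It stood at 1.038 and 0.4544 CPM in control cells and 1.148 and 1.199 CPM in knockdown cells (log2 change 0.47, 95% interval -0.19 to 1.13, limma adjusted p = 0.278). The controls differed more from each other than the first of them did from the knockdowns. PTCH1, the receptor itself and a known GLI target, was at 22.1 and 23.8 CPM in control cells and 25.3 and 25.1 CPM in knockdown cells and did not pass (log2 change 0.13, 95% interval -0.03 to 0.30, limma adjusted p = 0.203). Its knockdown values lay above the controls, on the opposite side to those of GLI1. SMO, the Smoothened transducer, was under the filter with 11 and 15 reads in control cells and 13 and 5 reads in knockdown cells, which overlapped. HHIP, a decoy receptor, had at most 2 reads.

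GLI1, a transcriptional activator and also a target of the pathway, was at 6.71 and 6.44 CPM in control cells and 4.52 and 3.37 CPM in knockdown cells. The groups did not overlap, and the mean was 1.67-fold lower in the knockdown (6.57 ± 0.193 against 3.95 ± 0.812 CPM, SD, n = 2; a log2 change of -0.68 with SE 0.17, limma adjusted p = 0.00489). This call is the least firm of the 3: it ended with DESeq2 (adjusted p = 0.0949), without the abundance trend (limma adjusted p = 0.0597) and without knockdown replicate 2 (log2 change -0.49, limma adjusted p = 0.0522). GLI3, known mainly as the repressor form, was at 23.7 and 20.6 CPM in control cells and 19.8 and 23.8 CPM in knockdown cells, with full overlap (log2 change -0.02, 95% interval -0.23 to 0.18). SUFU, which holds GLI proteins in the cytoplasm, had a log2 change of 0.08 (95% interval -0.08 to 0.25), and GLI2 had 1 and 0 reads in control cells and 4 and 0 reads in knockdown cells. Per kb of exon, GLI3 stood above GLI1 in every library, at 2.2 to 2.6 against 0.932 to 1.86 CPM per kb.

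**Figure D4:**
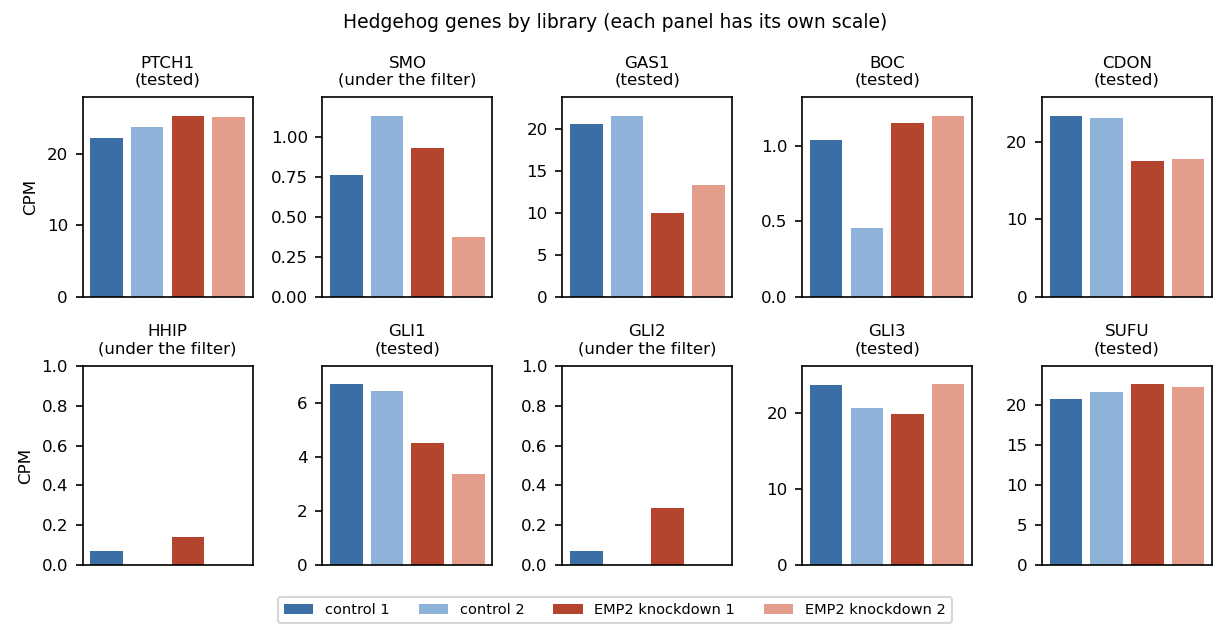
CPM of the 10 Hedgehog genes in each library, 1 panel per gene with its own linear scale from 0; SMO, HHIP and GLI2 were under the filter. Both knockdown bars are below both control bars for GAS1, CDON and GLI1, and above them for PTCH1, BOC and SUFU, which did not pass the test.

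The promoters of GAS1 and CDON are shown because each of these genes was called lower, and a shared cause was not tested. That of PTCH1 is shown because, among the 62 windows of the 44 genes that have one, it held the GLI motif GACCACCCA. The promoter of GLI1 was not analysed here. That motif, read on both strands, was in 0.199% of all 35116 windows and in 1 of these 62. In PTCH1 it lies in reverse orientation, 172 bases before 1 of its 5 annotated starts, and is in capitals (chr9:95509267-95509516, minus strand). The GAS1 window (chr9:86947507-86947756, minus strand) and that of the first of the 3 CDON starts (chr11:126063302-126063551, minus strand) held neither the GLI nor the TCF/LEF letters. Bases are from RefSeq, GRCh38.p14, and G and C made up 60.0% of the GAS1 window, 67.6% of the CDON window and 57.2% of the PTCH1 window, beside medians of 66.4% over the windows of these genes and 58.0% over all windows.
GAS1: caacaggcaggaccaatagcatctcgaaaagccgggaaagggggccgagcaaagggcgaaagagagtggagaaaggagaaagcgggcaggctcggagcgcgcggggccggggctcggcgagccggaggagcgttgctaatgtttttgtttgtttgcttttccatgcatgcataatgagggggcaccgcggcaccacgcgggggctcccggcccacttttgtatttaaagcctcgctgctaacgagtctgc
CDON: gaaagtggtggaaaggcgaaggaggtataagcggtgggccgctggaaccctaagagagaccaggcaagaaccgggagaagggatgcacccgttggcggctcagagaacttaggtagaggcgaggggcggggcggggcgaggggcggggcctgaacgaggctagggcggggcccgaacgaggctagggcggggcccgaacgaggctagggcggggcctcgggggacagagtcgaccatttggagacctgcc
PTCH1: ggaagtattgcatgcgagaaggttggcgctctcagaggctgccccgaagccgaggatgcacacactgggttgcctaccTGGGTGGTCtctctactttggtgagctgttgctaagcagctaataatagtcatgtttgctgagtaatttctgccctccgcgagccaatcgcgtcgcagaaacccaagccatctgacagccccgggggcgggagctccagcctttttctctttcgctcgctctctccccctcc

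The other genes of both pathways were read from the same fit, from lists made by role. Of 126 further Wnt genes 96 were tested, and 41 of these (42.7%, beside the 33.4% of all genes) were called, 20 higher and 21 lower. The median log2 change was 0.01. Of the called genes 12 passed 1.5-fold, where 5.83% of all tested genes were both called and past 1.5-fold. Among the 19 tested target genes of beta-catenin 14 were called, 6 higher and 8 lower, 73.7% beside the 33.4% of all genes. The list was made with earlier results of these data known, so its share supports nothing about Wnt targets in general. CCND1, the G1 cyclin, was at 71.9 and 70.2 CPM in the controls with a knockdown mean of 98.2 ± 5.86 CPM (SD, n = 2; a log2 change of 0.46, limma adjusted p = 1.03e-06). MYC had a control mean of 137.4 ± 0.56 and a knockdown mean of 106.7 ± 0.216 CPM (SD, n = 2; a log2 change of -0.36, limma adjusted p = 8.41e-07). CCND1 and MYC were named after their values were seen, as textbook targets with opposite signs. Many of these targets also answer to other pathways.

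By the naming rule (called, with an absolute log2 change of at least 0.5), 4 such targets are named with folds. EPHB2, an ephrin receptor, was at 6.85 and 6.51 CPM in control cells and 14.8 and 16.5 CPM in knockdown cells (log2 change 1.17). CLDN1, a tight junction protein, was at 2.77 and 2.57 CPM in control cells and 8.39 and 6.59 CPM in knockdown cells (log2 change 1.33). TNFRSF19 was at 2.84 and 3.56 CPM in control cells and 5.24 and 5.47 CPM in knockdown cells (log2 change 0.67). Its call held in 10 of the 12 alternative fits that gave it a value, and DESeq2 (adjusted p = 0.138) was among those that ended it. All 3 genes had higher values in both knockdowns. The naming rule favours groups that stand apart, so such separation, here and below, adds no support for genes named by it. BIRC5, the inhibitor of cell death survivin, was at 104.9 and 101.0 CPM in control cells and 68.0 and 68.3 CPM in knockdown cells (log2 change -0.59, limma adjusted p = 1.78e-08), lower in both. WISP1 stood at 1.66 and 1.51 CPM in control cells and 0.143 and 0 CPM in knockdown cells and passed the filter through the controls only. With knockdown values this low, it was tested only because its controls were higher. It is 1 of the 8 lower targets.

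Of the secretion genes WLS, which escorts Wnt proteins to the cell surface, had a mean of 56.9 ± 0.295 CPM in control cells and 49.9 ± 0.692 CPM in knockdown cells (SD, n = 2; a log2 change of -0.19, limma adjusted p = 0.00848). The WLS call ended with DESeq2 (adjusted p = 0.178) and without the abundance trend (limma adjusted p = 0.0671). WLS was named after its value was seen, as the called gene of that list. Among 6 tested receptors and secreted modulators 3 were higher and 1 lower (66.7%, beside the 33.4% of all genes, a difference that was not tested). TSPAN12, a tetraspanin that joins Frizzled and LRP5 in norrin signalling, was at 5.74 and 5.98 CPM in control cells and 10.7 and 9.81 CPM in knockdown cells (log2 change 0.76). SOSTDC1, a secreted antagonist of Wnt and BMP signalling, was at 3.11 and 2.88 CPM in control cells and 1.148 and 0.749 CPM in knockdown cells (log2 change -1.28 with SE 0.25, limma adjusted p = 0.000649). The groups of both genes stood apart, which the naming rule favours. SOSTDC1 passed the filter through its controls, since only 1 of its knockdown values reached 1 CPM. Like WISP1, it counts among the called further Wnt genes past 1.5-fold.

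The destruction complex and membrane kinases had 3 higher and 3 lower of 23 tested (26.1%), and the nuclear cofactors of beta-catenin 3 higher and 4 lower of 20 (35.0%), below and near the 33.4% of all genes. DACT2, which binds Dishevelled, was at 13.3 and 13.5 CPM in control cells and 6.53 and 7.04 CPM in knockdown cells (log2 change -0.93, limma adjusted p = 1.19e-05). TLE2, a Groucho corepressor, was at 8.30 and 8.18 CPM in control cells and 4.95 and 5.02 CPM in knockdown cells (log2 change -0.67). TBL1X, a subunit of a corepressor complex, was at 32.6 and 33.3 CPM in control cells and 20.2 and 17.9 CPM in knockdown cells (log2 change -0.78). These 3 genes were lower in both knockdown libraries than in either control, which the naming rule favours. Of 25 tested genes of planar cell polarity and other beta-catenin-independent signalling, 5 were higher and 4 lower (36.0%, also near the share of all genes). NFATC2, a calcium-regulated transcription factor, was at 1.04 and 1.51 CPM in control cells and 3.30 and 4.05 CPM in knockdown cells (log2 change 1.24). PRICKLE2, a polarity protein, was at 4.57 and 4.24 CPM in control cells and 2.65 and 2.70 CPM in knockdown cells (log2 change -0.63). The PRICKLE2 call held in 10 of the 12 alternative fits that gave it a value, and DESeq2 (adjusted p = 0.207) was among those that ended it.

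Of 64 further Hedgehog genes 48 were tested and 17 (35.4%) were called, 10 higher and 7 lower, near the 33.4% of all genes, with a median log2 change of 0.02; GSK3B and CSNK1A1 stand in the lists of both pathways. No ligand was above the filter: SHH and DHH had no reads, which allows up to 0.227 CPM, and IHH had at most 2 reads. Among the 27 tested genes of the cilium and its transport system, on which Hedgehog signalling depends in vertebrates, 5 were higher and 3 lower (29.6%, below the share of all genes). TULP3, which carries receptors into the cilium and restrains the pathway in mice, was at 30.4 and 31.4 CPM in control cells and 56.6 and 51.7 CPM in knockdown cells (log2 change 0.80 with SE 0.06, limma adjusted p = 4.03e-08). SPOP, an adaptor of a ubiquitin ligase that targets GLI proteins, was at 61.0 and 59.0 CPM in control cells and 40.9 and 41.8 CPM in knockdown cells (log2 change -0.53 with SE 0.05, limma adjusted p = 7.95e-07). Neither gene had overlapping groups, which the naming rule favours, TULP3 being higher and SPOP lower. The 2 tested Hedgehog targets outside the main list had log2 changes of 0.00 and 0.22 and were not called.

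**Figure D5:**
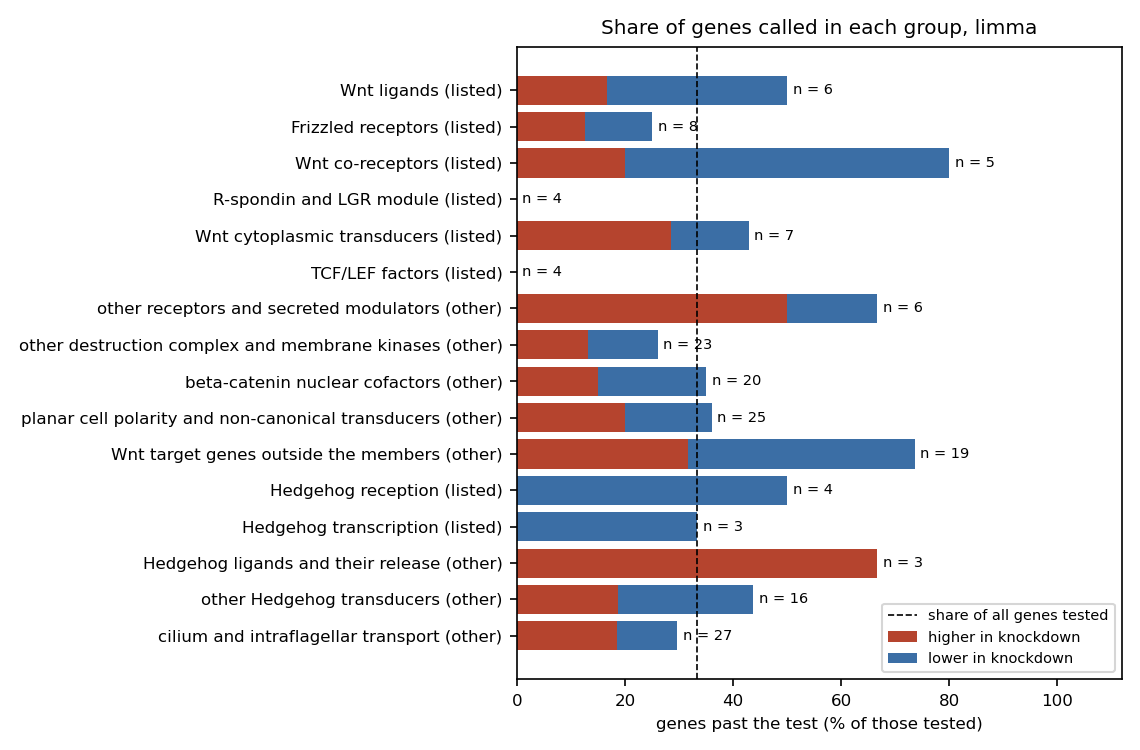
Percent of tested genes called higher (red) or lower (blue) in the knockdown by limma, for each role with at least 3 tested genes; n is the number tested and the dashed line marks the 33.4% called among all genes. Listed roles come from the 59 genes and other roles from the further pathway genes. Roles with fewer tested genes are not drawn, among them the secreted Wnt antagonists (2 tested, 2 called). Wnt targets reach 73.7% with both directions, and the R-spondin and TCF/LEF groups have no call.

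The number of calls rested on the test. On the reads recovered from the CPM values edgeR called 33.0% of all genes and DESeq2 16.9% of the 12866 genes to which it gave an adjusted p, and limma without its abundance trend called 14.1%. Of the 14 called Wnt genes edgeR kept 13 and DESeq2 10, and of the 3 Hedgehog genes edgeR kept 3 and DESeq2 1, GAS1. The Wnt calls made under every one of the 13 alternatives were 6, those of WNT6, WNT11, FZD1, ROR2, DVL2 and CTNNB1, and GAS1 was the 1 such Hedgehog call. Of the called genes DKK1 and WNT11 also have exons that overlap an opposite-strand gene over 11.8% and 10.6% of their length.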

How the data were processed

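Per the labels' protocols, total RNA was depleted of ribosomal RNA and sequenced as single reads; bcl2fastq 2.17, STAR and DESeq2 are named, with GRCh38, per the submitters' processing notes. The counting program, annotation and use of strand were not given in the sources used here. The deposited values are TMM-normalized CPM per gene, per the file headers, made by the authors; such scaling assumes that most genes do not differ and does not correct for length. All values (100%) were whole multiples of 1 read to within 0.1 read, so reads were recovered. Limma 3.58.1 (R 4.3.3) was run on log2(CPM + 0.5) with an abundance trend, group as the only term, two-sided, with Benjamini-Hochberg adjustment over 13661 genes; log2 changes on this scale understate the change of low genes. The design left 2 residual degrees of freedom, beside 14.15 that limma borrowed from all genes tested along the abundance trend. SEs, intervals and p-values of the main limma fit therefore rest mostly on the pooled spread of genes of like level. EdgeR 4.0.16 (quasi-likelihood) and DESeq2 1.42.0 on recovered reads were alternatives, and edgeR called 4506 genes. Both were run on reads with their own normalization. Scripts were tested on simulated data.

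The genes and lists were chosen with earlier results of these data known. Named were all called list members with every value, the larger uncalled ones, those under the filter, and other pathway genes called with an absolute log2 change of at least 0.5; exceptions are marked. Positions and exon lengths came from GENCODE v29 (GRCh38), whose build matches that of the processing notes; it may not be the authors' annotation. Same-numbered libraries did not deviate together (correlation of deviations -0.003 over 13661 genes), and the main fit used no replicate block. With 2 libraries in a group, this value cannot show whether same-numbered libraries shared a culture or day. Control and knockdown replicates differed by more than counting noise (chi-square 1.64 and 1.62 per gene), so all 4 libraries were counted. Intervals rest on the spread among libraries as fitted by limma, and limits for a count of 0 cover counting error only.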

Additional observations from a re-analysis of the deposited data

How the results depend on the processing

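Each result was recomputed under 13 alternatives: other pseudocounts (0.1 and 1), no filter on low values, a mean of at least 5 CPM, quantile normalization, no abundance trend, edgeR, DESeq2, a replicate block and leaving out each library. Of 566 recomputed member values, 523 kept their direction and their side of the threshold, 29 kept their direction and lost the call, and 14 changed direction; no uncalled gene of the list gained a call. Without the abundance trend 916 genes were called higher and 1016 lower, and 2 Wnt genes higher and 4 lower, ending the calls of DKK1, FZD2, ROR1, WNT5A, DVL1, LRP5, RYK, SFRP1 and GLI1. DESeq2 called 993 genes higher and 1181 lower and 1 Hedgehog gene lower (GAS1). FZD2 and ROR1 lost their calls with no filter, and RYK with quantile normalization. The cause of these differences was not tested. With the replicate block, 2162 genes were called higher and 2180 lower, and the Wnt (6 higher, 8 lower) and Hedgehog (3 lower) calls were the same genes.

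Leaving out 1 library gave 1823 to 2029 genes higher and 1842 to 2059 lower, 4 to 5 Wnt genes higher and 7 to 8 lower, and 2 to 3 Hedgehog genes lower. FZD2 lost its call without any 1 of the 4 libraries, ROR1 without control replicate 1 or either knockdown, RYK without control replicate 1 or knockdown replicate 2, and GLI1 without knockdown replicate 2. Where a leave-out left 1 library in a group, that library was assumed to vary like the others. All 14 changes of direction concerned uncalled genes: FZD5 under quantile normalization (-0.0005), and on leaving out 1 library WNT7B (-0.21 to 0.12), FZD4 (-0.0095 to 0.13), FZD5 (-0.11 to 0.13), FZD6 (-0.0684 to 0.0377), LGR4 (-0.0878 to 0.0291), ZNRF3 (-0.16 to 0.0341), LEF1 (-0.29 to 0.17) and GLI3 (-0.15 to 0.11).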
